A study of Mus musculus with 9 samples.

Results

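Histone and DNA modifying enzymes were selected from the RNA-Seq tables by gene symbol. The rule took symbols that begin with Hdac, Kdm, Kat, Kmt, Setd, Suv39h, Suv420h, Prmt, Dnmt, Tet or Ezh followed by a digit, and it left out 4 of the 72 matching symbols by name. This gave 68 of the 24341 listed genes: 11 histone deacetylases, 7 lysine acetyltransferases, 20 SET-domain lysine methyltransferases or related proteins, 14 lysine demethylases, 8 arginine methyltransferases, 4 DNA methyltransferases, 3 Tet dioxygenases and the RNA Dnmt3aos, an antisense transcript that matched the letters of the rule and is not an enzyme. RNA-Seq was done on cultured mouse embryonic fibroblasts (MEFs) of the strain C57BL/6, grown in DMEM with 10% FBS, with 3 libraries labelled WT, 3 labelled Atm-/- and 3 labelled Sirt6-/-. The labels give no treatment other than genotype and no embryonic age, and they list MEFs from wildtype, Sirt6-/-, P53-/- and Atm-/-P53-/- mice without saying which library came from which. According to the study's methods, the immortalized Atm-/-; p53-/- and Sirt6-/- MEFs came from separate laboratories, so genotype and cell line cannot be told apart. Nothing in the labels says that the 3 libraries of a genotype came from separate cultures or embryos, and p-values measure only the spread between these libraries, which may be technical.

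These enzymes write and erase chemical marks on histone tails and on DNA. Acetyltransferases add acetyl groups to lysines and are generally associated with open chromatin, deacetylases remove them, methyltransferases with a SET domain add methyl groups whose effect depends on the lysine, and demethylases of the LSD and JmjC families remove those. DNA methyltransferases methylate cytosines, and Tet dioxygenases oxidize the methylated base. Sirt6, which the label Sirt6-/- names, itself encodes an NAD-dependent deacetylase of histone H3, and Atm encodes the kinase that starts the response to DNA breaks.

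Each library held between 32187040 and 33837949 reads counted to genes. Scaled by library totals only, 3 reads correspond to between 0.0887 and 0.0932 CPM (counts scaled to a common library total). The CPM levels of members and partner genes given below were also scaled by TMM, a correction factor for each library. The level of 3 reads is therefore not exactly on their scale. Sirt6 had 4 to 7 reads in the libraries labelled Sirt6-/- and 402 to 487 in WT. Atm reads went against a loss of transcript, at 3443 to 3768 in the libraries labelled Atm-/- and 1536 to 1627 in WT, and the files do not show which part of the gene was altered, so this gene does not check the label and these are called "the libraries labelled Atm-/-". Trp53, which encodes p53, had 806 to 946 reads there, 6563 to 7108 in WT and 9081 to 9218 in the libraries labelled Sirt6-/-, so a difference of Trp53 and of Atm status from WT cannot be told apart. WT replicate 2 stood apart from the other WT libraries (chi-square per gene 16.4 and 15.1, against 5.24 to 6.88 for all other pairs within a genotype), and the member counts without it were 29 higher and 21 lower for Atm-/- against WT and 29 higher and 17 lower for Sirt6-/- against WT. All 8 fibroblast markers had reads in every genotype, with a summed level of 18369.5 to 21823 CPM in WT, 5778 to 5909 CPM in the libraries labelled Atm-/- and 15515 to 16101 CPM in those labelled Sirt6-/-. In the libraries labelled Sirt6-/- 7 of the 8 were over 1 CPM. The summed level of 4 neural markers (Sox2, Nes, Tubb3, Map2) was 7.39 to 8.45 CPM in WT, 277 to 286 CPM in the libraries labelled Atm-/- and 269 to 292 CPM in those labelled Sirt6-/-. The part of these differences in the results that follow was not tested, and in bulk RNA fewer cells of a type and less RNA per cell cannot be told apart.

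Of the 68 members, 64 had enough reads to be tested in every comparison. Dnmt3l, Dnmt3aos, Prmt8 and Kdm4d were not tested, since no library held more than 21 reads of any of them. A gene was called when its p from the quasi-likelihood test of edgeR, adjusted over all genes tested by the Benjamini-Hochberg method, was under 0.05. In the libraries labelled Atm-/-, 29 members were higher than in WT, 21 were lower and 14 were not called. Among all 13283 genes tested in that comparison 34.7% were called higher, 33.6% lower and 68.4% in either direction, against 78.1% of the members tested. In the libraries labelled Sirt6-/-, 29 members were higher than in WT, 16 were lower and 19 were not called. There 39.2% of the 13206 genes tested were called higher, 37.4% lower and 76.6% in either direction, against 70.3% of the members tested. When libraries were scaled by their totals and not by TMM, the members split into 36 higher and 16 lower in Atm-/- against WT, beside a split over all genes of 6156 higher and 3326 lower in place of 4611 and 4469, and that setting moved the median log2 fold change of all genes to 0.18 in this comparison and 0.11 in Sirt6-/- against WT.

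Most of the called differences were small. The median absolute log2 fold change of the members was 0.38 in Atm-/- against WT and 0.35 in Sirt6-/- against WT, where the medians over all genes tested were 0.40 and 0.54. The libraries of the genotypes compared did not overlap for 54 members in Atm-/- against WT (background 72.8% of all genes tested) and for 47 members in Sirt6-/- against WT (background 79.1%). At least 2-fold higher in the libraries labelled Atm-/- were 4 members (Tet1, Hdac9, Suv39h1 and Hdac6), against a background of 12.6% of all genes, and at least 2-fold lower were 4 (Kat2b, Dnmt3a, Kdm5b and Hdac11), against 9.85%. At least 2-fold higher in the libraries labelled Sirt6-/- were 5 members (Tet1, Hdac9, Ezh1, Hdac5 and Hdac6), against a background of 17.5%, and at least 2-fold lower were 4 (Kat2b, Kdm8, Dnmt3a and Setd8), against 11.8%. In both comparisons with WT, Tet1 and Hdac9 had enough reads to be tested only through the libraries in which they were high. Their place among the higher members was thus partly fixed by the filter. Both comparisons use the same WT libraries, so the direct contrast of Sirt6-/- with Atm-/- is the test of a difference between them. In that contrast 26 members were higher in Sirt6-/-, 21 were lower and 17 were not called, which is 73.4% of those tested, beside backgrounds over 13460 genes of 37.8% higher, 38.0% lower and 75.8% in either direction.

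**Figure D1:**
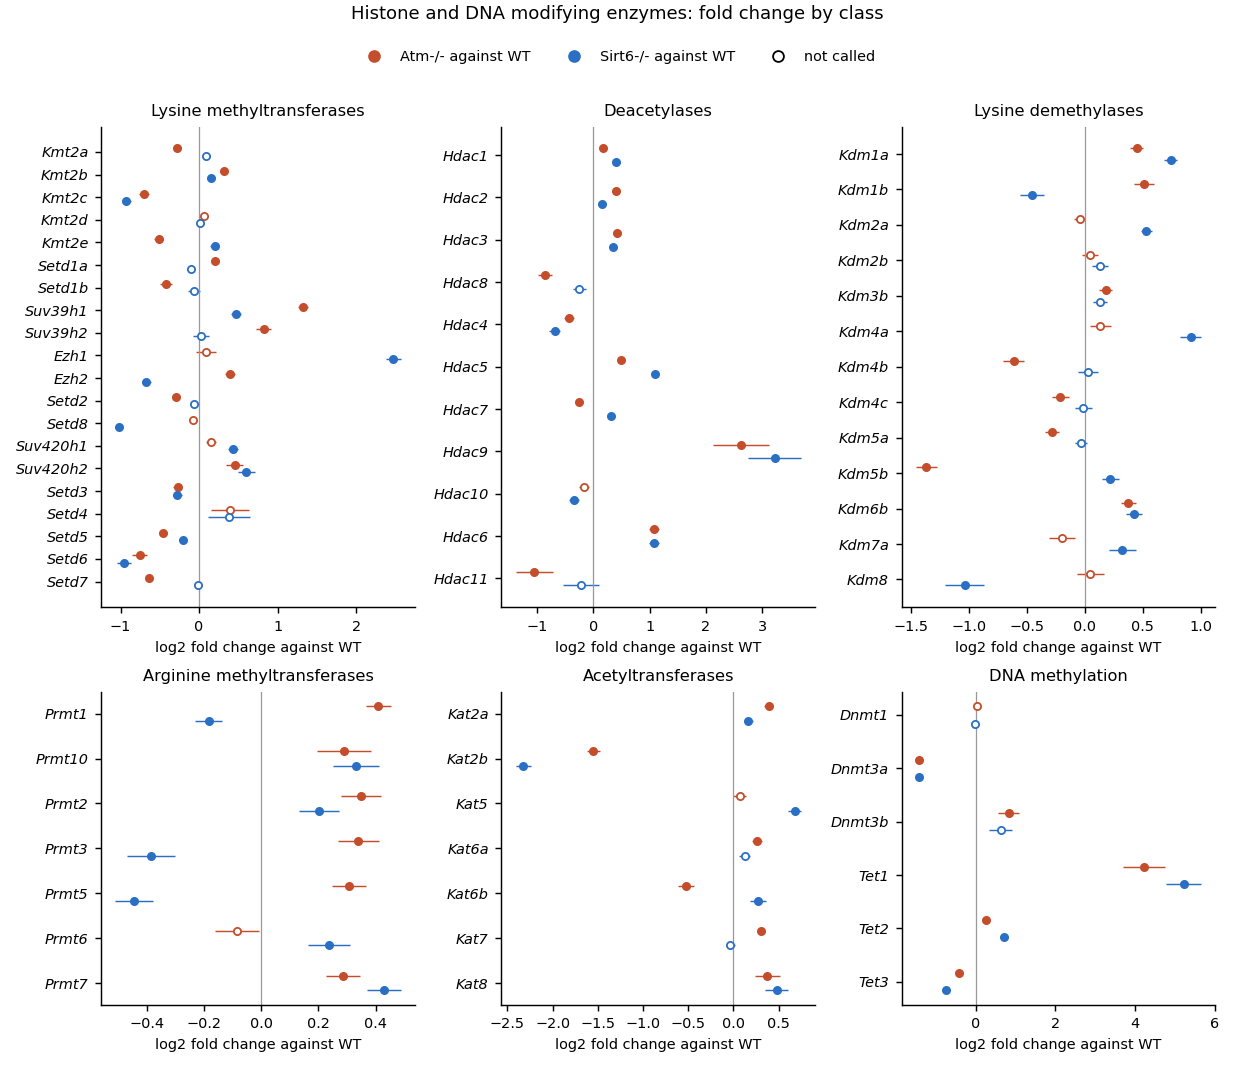
Log2 fold change against WT (horizontal axis, with a different range in each panel) of the 64 members tested, grouped by enzyme class, for the libraries labelled Atm-/- (orange) and Sirt6-/- (blue). Bars are the SE, computed as the absolute log2 fold change over the square root of the F statistic of the edgeR test, with 3 libraries per genotype. Open circles are members that were not called. Tet1 at 4.23 and 5.22, Hdac9 at 2.62 and 3.22, Ezh1 at 2.47 in Sirt6-/- and Kat2b at -1.55 and -2.32 lie farthest from 0, and most others lie within 1 log2 unit.

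The H3K27 methyltransferases Ezh1 and Ezh2 are the alternative catalytic subunits of Polycomb repressive complex 2 (PRC2), which deposits a repressive mark on histone H3. Both were measured well above the level of 3 reads in every library. The 250 bases before the RefSeq start site of Ezh1, taken from the RefSeq promoter table on GRCm38.p6 and printed 5′ to 3′ on the strand of the gene, are shown because the balance of this pair differed most between genotypes among the 6 paralogue pairs compared. The window holds none of the E2F, CHR or NRF1 letters given further on.
Ezh1 (chr11:101226464-101226713, minus strand): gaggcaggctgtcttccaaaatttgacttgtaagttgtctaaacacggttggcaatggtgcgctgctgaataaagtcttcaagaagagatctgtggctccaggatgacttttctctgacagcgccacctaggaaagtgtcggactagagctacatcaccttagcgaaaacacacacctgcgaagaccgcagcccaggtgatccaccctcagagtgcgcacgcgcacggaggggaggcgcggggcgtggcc

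Ezh1 (chr11:101191115-101226463 (minus strand), GENCODE M21 on GRCm38) stood at 14.6, 10.6 and 12.4 CPM in the WT libraries, 12.4, 12.6 and 15.1 CPM in those labelled Atm-/- and 70.5, 69.3 and 67.3 CPM in those labelled Sirt6-/-. The libraries labelled Sirt6-/- lay far above all 6 others, and the other genotypes overlapped. Ezh1 was 5.55-fold higher in Sirt6-/- than in WT (log2 fold change 2.47, SE 0.09, edgeR adjusted p = 4.59e-12) and was not called in Atm-/- (log2 fold change 0.09, edgeR adjusted p = 0.567). Ezh2 (chr6:47530139-47595341 (minus strand)) stood at 85.8, 96.2 and 93.2 CPM in WT, 127, 120.4 and 115 CPM in the libraries labelled Atm-/- and 57.7, 56.8 and 57.1 CPM in those labelled Sirt6-/-. The genotypes were fully separated, with Atm-/- highest and Sirt6-/- lowest. Ezh2 rose in Atm-/- (log2 fold change 0.39, SE 0.06, edgeR adjusted p = 3.01e-05) and fell in Sirt6-/- (log2 fold change -0.67, SE 0.06, edgeR adjusted p = 7.36e-08), and the direct contrast differed as well (log2 fold change -1.08, SE 0.05, edgeR adjusted p = 5.06e-14).

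Per length, in RPKM (read counts scaled by listed transcript length and library total), Ezh1 made up 7.97% ± 1.60 (SD, n = 3) of the summed level of the pair in WT and 6.53% ± 0.975 in the libraries labelled Atm-/-. In those labelled Sirt6-/- it made up 43.2% ± 0.506, with 43.5%, 43.5% and 42.6% in the 3 libraries. The Ezh1 share was therefore separated between Sirt6-/- and the other genotypes in every library. The summed RPKM of both genes was 35.3 ± 1.62 in WT, 51.2 ± 2.23 in Atm-/- and 38.2 ± 0.685 in Sirt6-/-. RPKM carries no TMM scaling, so these sums were not compared between genotypes. Proliferation genes moved beside Ezh2: of 15 such genes (among them Mki67, Pcna and the Mcm genes) 9 were higher and 2 lower in Atm-/-, 2 were higher and 9 lower in Sirt6-/-, and 14 were lower in Sirt6-/- than in Atm-/-. Their summed level was 3453 to 3764 CPM in WT, 4092 to 4186 CPM in Atm-/- and 2866 to 3048 CPM in Sirt6-/-, and their part in the Ezh2 differences was not tested. Other members known as cell cycle genes went with these genes only in part. Suv39h1 and Suv39h2 rose in Atm-/-, where Setd8 was not called. In Sirt6-/- Setd8 fell, Suv39h1 rose and Suv39h2 was not called. Dnmt1 was called in neither comparison with WT.

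Suv39h1 and Suv39h2 encode enzymes that trimethylate H3K9 in constitutive heterochromatin. Suv39h1 (chrX:8061171-8074760 (minus strand)) was the most changed SET-domain gene in the libraries labelled Atm-/-, with 118, 134 and 123 CPM against 49.8, 53.1 and 46.5 CPM in WT and 67.7, 68.0 and 70.5 CPM in those labelled Sirt6-/-. None of the genotypes overlapped. It rose 2.50-fold in Atm-/- (log2 fold change 1.32, SE 0.07, edgeR adjusted p = 2.08e-10) and 1.39-fold in Sirt6-/- (log2 fold change 0.47, SE 0.06, edgeR adjusted p = 8.08e-06), and 11.1% of its exon bases are shared with the annotated gene Gm14820, whose reads cannot be told apart here. Suv39h2 stood at 20.5 ± 2.68 CPM (SD, n = 3) in WT, 36.4 ± 2.98 CPM in Atm-/- and 20.6 ± 0.898 CPM in Sirt6-/-, so that it rose in Atm-/- (log2 fold change 0.82, SE 0.10, edgeR adjusted p = 3.72e-06) and was not called in Sirt6-/- (edgeR adjusted p = 0.87). Both genes were lower in Sirt6-/- than in Atm-/- in the direct contrast, with log2 fold changes of -0.86 and -0.82. Suv39h1 made up 76.3% ± 3.08 of the summed RPKM of the pair in WT, 82.0% ± 1.82 in Atm-/- and 81.5% ± 0.940 in Sirt6-/-, and the 3 WT libraries lay below all others.

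The 3 genes of the H4K20 class were listed by their older symbols: Setd8 (now Kmt5a), which adds the first methyl group, and Suv420h1 and Suv420h2 (now Kmt5b and Kmt5c), which add further groups. Setd8 (chr5:124439930-124462308 (plus strand)) was, per length, the second most abundant member in WT at 90.0 ± 2.55 RPKM. Its levels were 259, 269 and 257 CPM in WT, 256, 247 and 245 CPM in the libraries labelled Atm-/- and 126, 134 and 126 CPM in those labelled Sirt6-/-. The libraries labelled Sirt6-/- lay below all 6 others, and those labelled Atm-/- lay just below WT. Setd8 fell in Sirt6-/- (log2 fold change -1.02, SE 0.05, edgeR adjusted p = 5.86e-11) and was not called in Atm-/- (log2 fold change -0.08, edgeR adjusted p = 0.134). Suv420h1 at 48.9 ± 2.47 CPM in WT rose in Sirt6-/- (log2 fold change 0.43, SE 0.06, edgeR adjusted p = 1.19e-05), while in Atm-/- it had a log2 fold change of 0.15 (edgeR adjusted p = 0.0574) that passed the threshold under 6 of the 15 alternative settings. Suv420h2 at 9.72 ± 0.106 CPM rose by 0.45 in Atm-/- and 0.60 in Sirt6-/- on the log2 scale. Their direction was thus opposite to that of Setd8 in Sirt6-/-, and Suv420h1 made up 64.3% ± 1.14 in WT, 59.4% ± 2.47 in Atm-/- and 61.7% ± 1.92 in Sirt6-/- of the summed RPKM of the Suv420h pair, with all 3 WT libraries above the other 6.

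The H3K4 class held Kmt2a to Kmt2e, Setd1a and Setd1b, which (with the exception of Kmt2e, a protein with a SET domain) are the catalytic subunits of COMPASS-type complexes at promoters and enhancers. In Atm-/- against WT 2 of the 7 were higher, 4 were lower and 1 was not called. That is 28.6% higher and 57.1% lower beside 34.7% and 33.6% of all genes. In Sirt6-/- against WT 2 were higher, 1 was lower and 4 were not called. That is 28.6% higher and 14.3% lower beside 39.2% and 37.4% of all genes. Kmt2c, an enhancer methyltransferase, fell most in either genotype, from 77.7 ± 1.35 CPM in WT to 48.0 ± 2.74 CPM in Atm-/- (log2 fold change -0.70, SE 0.06, edgeR adjusted p = 9.78e-08) and 40.6 ± 0.993 CPM in Sirt6-/- (log2 fold change -0.93, SE 0.06, edgeR adjusted p = 1.27e-09). Its close relative Kmt2d had 137, 135 and 132 CPM in the WT libraries and was called in neither comparison with WT. Setd1a, the most abundant gene of the class per length at 15.8 ± 0.446 RPKM in WT, stood at 97.3, 99.0 and 103 CPM in WT, 112, 115 and 119 CPM in the libraries labelled Atm-/- and 94.2, 91.0 and 91.7 CPM in those labelled Sirt6-/-. It was higher than WT without overlap in Atm-/- (log2 fold change 0.21, SE 0.05, edgeR adjusted p = 0.0019) and, though all 3 libraries lay below WT, not called in Sirt6-/- (log2 fold change -0.10, SE 0.05, edgeR adjusted p = 0.0766), and 53.3% of its exon bases are shared with the annotated gene Gm49388.

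Kmt2e was one of 9 members called in opposite directions in the comparisons with WT. The share of all genes called in opposite directions was not counted, so the 9 cannot be set against a background. Kmt2e stood at 119.8, 106 and 116 CPM in WT, 78.8, 80.7 and 80.4 CPM in the libraries labelled Atm-/- and 136, 127 and 125 CPM in those labelled Sirt6-/-. It fell in Atm-/- (log2 fold change -0.52, SE 0.05, edgeR adjusted p = 9.06e-07), rose slightly in Sirt6-/- (log2 fold change 0.20, SE 0.05, edgeR adjusted p = 0.00446) and differed by 0.70 in the direct contrast, with 13.3% of its exon bases shared with Srpk2. Kmt2a, Kmt2b and Setd1b differed from WT by -0.28, 0.32 and -0.42 on the log2 scale in Atm-/-, and all 3 were called there. In Sirt6-/- only Kmt2b of these was called (log2 fold change 0.15, edgeR adjusted p = 0.0189), and without WT replicate 1, WT replicate 3 or Sirt6-/- replicate 3 it was not (0.14, 0.13 and 0.13, edgeR adjusted p = 0.0528, 0.0759 and 0.0675). The Kmt2a call in Atm-/- ended with library totals (log2 fold change -0.11, edgeR adjusted p = 0.0536).

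Setd2, which trimethylates H3K36 in transcribed genes, was measured at 160.0, 155 and 154 CPM in WT, 131, 123 and 129 CPM in the libraries labelled Atm-/- and 148, 153 and 143 CPM in those labelled Sirt6-/-. The libraries labelled Atm-/- were the lowest. Setd2 fell in Atm-/- (log2 fold change -0.30, SE 0.05, edgeR adjusted p = 4.96e-05) and was not called in Sirt6-/- (edgeR adjusted p = 0.182).

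Of the 5 other SET-domain genes, which include enzymes that act on proteins other than histones, none was called higher. In Atm-/- 4 fell and 1 was not called, which is 80% lower beside 33.6% of all genes. In Sirt6-/- 3 fell and 2 were not called, which is 60% lower beside 37.4% of all genes. Called higher were 34.7% of all genes in Atm-/- and 39.2% in Sirt6-/-. Setd3, an actin histidine methyltransferase and the most abundant of them per length in WT, had 96.0, 95.6 and 87.6 CPM in WT, 76.5, 78.2 and 77.3 CPM in the libraries labelled Atm-/- and 79.4, 75.1 and 74.2 CPM in those labelled Sirt6-/-. The WT libraries were the highest in each case, and the other genotypes overlapped. Setd6, which methylates non-histone proteins, fell in both, with log2 fold changes of -0.75 in Atm-/- and -0.95 in Sirt6-/-, and the direct contrast was not called (edgeR adjusted p = 0.0584). Setd7 fell in Atm-/- (log2 fold change -0.64, SE 0.05, edgeR adjusted p = 1.39e-08), with -0.01 in Sirt6-/- and a direct contrast of 0.61 (edgeR adjusted p = 3.72e-11). Setd5 fell in both, with log2 fold changes of -0.46 and -0.21, and Setd4, at 2.44 ± 0.769 CPM in WT the scarcest of the class, was called in neither. Setd4 alone of the class had positive log2 fold changes, of 0.40 in Atm-/- and 0.38 in Sirt6-/-. With library totals Setd3 was no longer called in Atm-/- (log2 fold change -0.11, edgeR adjusted p = 0.0849).

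Among the 7 lysine acetyltransferases, the paralogues Kat2a and Kat2b, the catalytic subunits of SAGA-type and ATAC complexes, moved apart from each other in both genotypes. The promoter window of Kat2a is shown because it is the member window with E2F letters, in capitals here, that lies outside the annotated exons.
Kat2a (chr11:100712468-100712717, minus strand): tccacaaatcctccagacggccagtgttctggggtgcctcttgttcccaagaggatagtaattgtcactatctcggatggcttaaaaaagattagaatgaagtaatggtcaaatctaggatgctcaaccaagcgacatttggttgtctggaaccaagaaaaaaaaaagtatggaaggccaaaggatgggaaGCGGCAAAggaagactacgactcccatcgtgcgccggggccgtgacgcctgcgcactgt

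Kat2b (chr17:53566861-53672720 (plus strand)) had the largest fall of any member, from 122, 102 and 121 CPM in WT to 42.1, 37.4 and 38.8 CPM in the libraries labelled Atm-/- and 25.2, 20.7 and 22.5 CPM in those labelled Sirt6-/-. The 3 genotypes did not overlap. It was 2.93-fold lower in Atm-/- (log2 fold change -1.55, SE 0.07, edgeR adjusted p = 1.44e-10) and 5.01-fold lower in Sirt6-/- (log2 fold change -2.32, SE 0.08, edgeR adjusted p = 3.12e-12), and it was lower in Sirt6-/- than in Atm-/- (log2 fold change -0.79, SE 0.08, edgeR adjusted p = 1.33e-08). Kat2a was at 116, 123 and 117 CPM in WT, 159, 153 and 157 CPM in the libraries labelled Atm-/- and 132, 134 and 131 CPM in those labelled Sirt6-/-. All 6 libraries of the other genotypes were above WT. It rose in Atm-/- (log2 fold change 0.39, SE 0.05, edgeR adjusted p = 4.08e-06) and, less, in Sirt6-/- (log2 fold change 0.17, SE 0.05, edgeR adjusted p = 0.00549). The Kat2a share of the summed RPKM of the pair was 61.2% ± 3.24 in WT, 85.8% ± 0.531 in Atm-/- and 89.9% ± 0.966 in Sirt6-/-, without overlap between any of the genotypes. The summed level was 59.9 ± 0.908 RPKM in WT, 62.7 ± 1.57 RPKM in Atm-/- and 48.6 ± 0.740 RPKM in Sirt6-/-. These sums are scaled by library totals and not by TMM, so they were not compared between genotypes.

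The other 5 acetyltransferases belong to the MYST family. Kat5 (Tip60), which acetylates histones H2A and H4 and also the Atm kinase, stood at 34.1, 37.7 and 38.3 CPM in WT, 37.6, 38.5 and 39.8 CPM in the libraries labelled Atm-/- and 54.8, 59.4 and 60.6 CPM in those labelled Sirt6-/-. Only the libraries labelled Sirt6-/- were separate from WT. Kat5 rose in Sirt6-/- (log2 fold change 0.68, SE 0.07, edgeR adjusted p = 5.04e-07) and was not called in Atm-/- (edgeR adjusted p = 0.396), and 18.9% of its exon bases are shared with Rnaseh2c. Kat6b was called in opposite directions, with 43.5, 35.2 and 45.2 CPM in WT, 28.8, 28.5 and 29.1 CPM in the libraries labelled Atm-/- and 52.3, 48.9 and 47.4 CPM in those labelled Sirt6-/-. WT replicate 2 was the lowest WT library and still lay above all 3 labelled Atm-/-. The fall in Atm-/- had a log2 fold change of -0.52 (edgeR adjusted p = 9.24e-05), the rise in Sirt6-/- 0.27 (edgeR adjusted p = 0.00915) and the direct contrast 0.78 (edgeR adjusted p = 6.29e-10). Its paralogue Kat6a and the H3K14 acetyltransferase Kat7 rose in Atm-/- by 0.26 and 0.31 on the log2 scale and were not called in Sirt6-/-, although Kat6a (log2 fold change 0.13, SE 0.06, edgeR adjusted p = 0.0706) passed there under 5 of the 15 alternative settings. Kat8, the H4K16 acetyltransferase, was called higher in both, at 0.38 and 0.48, and the first call was lost without WT replicate 1 (0.30, edgeR adjusted p = 0.0985) or Atm-/- replicate 1 (0.29, edgeR adjusted p = 0.121).

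**Figure D2:**
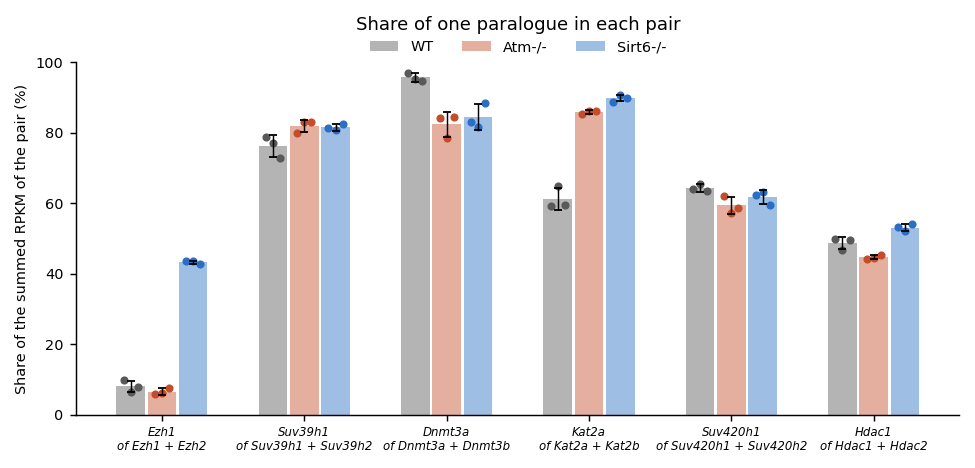
Share of the first gene in the summed RPKM of 6 paralogue pairs (vertical axis, percent), with points for single libraries, bars for the mean of 3 and error bars for the SD, in WT (grey) and the libraries labelled Atm-/- (orange) and Sirt6-/- (blue). The Ezh1 share is 7.97% in WT, 6.53% in Atm-/- and 43.2% in Sirt6-/-, and the Kat2a share is 61.2%, 85.8% and 89.9%.

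Of the 11 histone deacetylases 6 rose in Atm-/-, 4 fell and 1 was not called, which is 54.5% higher and 36.4% lower beside 34.7% and 33.6% of all genes. In Sirt6-/- 7 rose, 2 fell and 2 were not called, which is 63.6% higher and 18.2% lower beside 39.2% and 37.4% of all genes. The class I enzymes Hdac1 and Hdac2, the catalytic subunits of the Sin3, NuRD and CoREST complexes, were similarly abundant in WT, at 52.4 ± 1.35 and 55.3 ± 2.29 RPKM. Hdac1 stood at 112, 106 and 111 CPM in WT, 123, 125 and 123 CPM in the libraries labelled Atm-/- and 144, 142 and 148 CPM in those labelled Sirt6-/-. Hdac2 stood at 115, 123 and 116 CPM in WT, 158, 159 and 151 CPM in the libraries labelled Atm-/- and 129, 133 and 128 CPM in those labelled Sirt6-/-. Neither gene overlapped with WT in either genotype, and Hdac1 was highest in Sirt6-/- while Hdac2 was highest in Atm-/-. The log2 fold changes were 0.17 and 0.41 for Hdac1 and 0.40 and 0.15 for Hdac2, all 4 called, and the Hdac1 share of the summed RPKM of the pair was 48.7% ± 1.67 in WT, 44.6% ± 0.581 in Atm-/- and 53.1% ± 0.972 in Sirt6-/-. The Hdac2 call in Sirt6-/- was lost without WT replicate 1, WT replicate 3 or Sirt6-/- replicate 2 (0.12, 0.12 and 0.13, edgeR adjusted p = 0.071, 0.0608 and 0.0555). Hdac3, the deacetylase of NCoR complexes, rose in both, by 0.42 and 0.36, and Hdac8 fell in Atm-/- (log2 fold change -0.86, SE 0.12, edgeR adjusted p = 1.89e-05) and was not called in Sirt6-/- (edgeR adjusted p = 0.0527), where it passed under 5 of the 15 alternative settings.

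The class IIa deacetylases, signal-dependent partners of MEF2 and other transcription factors, moved in both directions. Hdac5 (chr11:102194432-102230166 (minus strand)) had 56.6, 47.6 and 56.7 CPM in WT, 71.7, 76.6 and 78.8 CPM in the libraries labelled Atm-/- and 116, 107 and 117 CPM in those labelled Sirt6-/-. The genotypes were separate, with WT lowest. It rose 2.13-fold in Sirt6-/- (log2 fold change 1.09, SE 0.07, edgeR adjusted p = 1.67e-09) and 1.41-fold in Atm-/- (log2 fold change 0.49, SE 0.07, edgeR adjusted p = 2.19e-05). Hdac4 fell, from 18.7 ± 0.604 CPM to 13.9 ± 0.423 and 11.6 ± 0.679 CPM (log2 fold change -0.43, SE 0.09, edgeR adjusted p = 0.00065 in Atm-/-, and log2 fold change -0.68, SE 0.10, edgeR adjusted p = 1.4e-05 in Sirt6-/-). Hdac7, the most abundant of them per length, was at 209, 207 and 206 CPM in WT, 171, 169 and 181 CPM in the libraries labelled Atm-/- and 266, 244 and 259 CPM in those labelled Sirt6-/-. It fell in Atm-/- (log2 fold change -0.26, SE 0.05, edgeR adjusted p = 0.000135) and rose in Sirt6-/- (log2 fold change 0.31, SE 0.05, edgeR adjusted p = 2.12e-05), with no overlap, though with library totals the fall in Atm-/- was no longer called (log2 fold change -0.10, edgeR adjusted p = 0.0678).

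Hdac9 (chr12:34047580-34917095 (minus strand)), also of class IIa, was scarce. Its read counts were 10, 2 and 5 in WT, 32, 38 and 47 in the libraries labelled Atm-/- and 51, 51 and 65 in those labelled Sirt6-/-. Every library of the other genotypes held more reads than every WT library. The fitted rises (log2 fold change 2.62, SE 0.50, edgeR adjusted p = 0.000295 in Atm-/-, and log2 fold change 3.22, SE 0.47, edgeR adjusted p = 1.82e-05 in Sirt6-/-) rest on few WT reads and depend on the prior count of the fit. Hdac9 had enough reads to be tested only through the libraries in which it was high, so these p-values are no separate support.

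Of class IIb, Hdac6 (chrX:7930120-7947889 (minus strand)), a mainly cytoplasmic deacetylase of tubulin, stood at 26.8, 21.2 and 24.1 CPM in WT, 51.4, 55.0 and 45.7 CPM in the libraries labelled Atm-/- and 50.6, 47.2 and 52.9 CPM in those labelled Sirt6-/-. The WT libraries lay below all others, and the other genotypes overlapped. Hdac6 rose 2.10-fold in Atm-/- (log2 fold change 1.07, SE 0.09, edgeR adjusted p = 9.28e-08) and 2.11-fold in Sirt6-/- (log2 fold change 1.07, SE 0.08, edgeR adjusted p = 2.37e-08), and the direct contrast was not called (log2 fold change -0.01, edgeR adjusted p = 0.853). Hdac10, a polyamine deacetylase, had 19.9, 19.6 and 22.3 CPM in WT, 18.5, 18.7 and 18.2 CPM in the libraries labelled Atm-/- and 16.6, 15.2 and 16.6 CPM in those labelled Sirt6-/-, and fell in Sirt6-/- (log2 fold change -0.34, edgeR adjusted p = 0.00338). In Atm-/- it was not called, and its direct contrast (log2 fold change -0.20, SE 0.09, edgeR adjusted p = 0.0469) lost its call under 10 of the 15 alternative settings, among them every setting that left out a library. Hdac11 (chr6:91156665-91174692 (plus strand)), the only class IV enzyme, had 2.37, 3.09 and 2.71 CPM in WT, 0.664, 1.34 and 1.95 CPM in the libraries labelled Atm-/- and 2.21, 1.20 and 3.56 CPM in those labelled Sirt6-/-. The spread was wide, and only the libraries labelled Atm-/- lay fully below WT (log2 fold change -1.05, SE 0.33, edgeR adjusted p = 0.0108), with 22.4% of its exon bases shared with Gm44002.

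**Figure D3:**
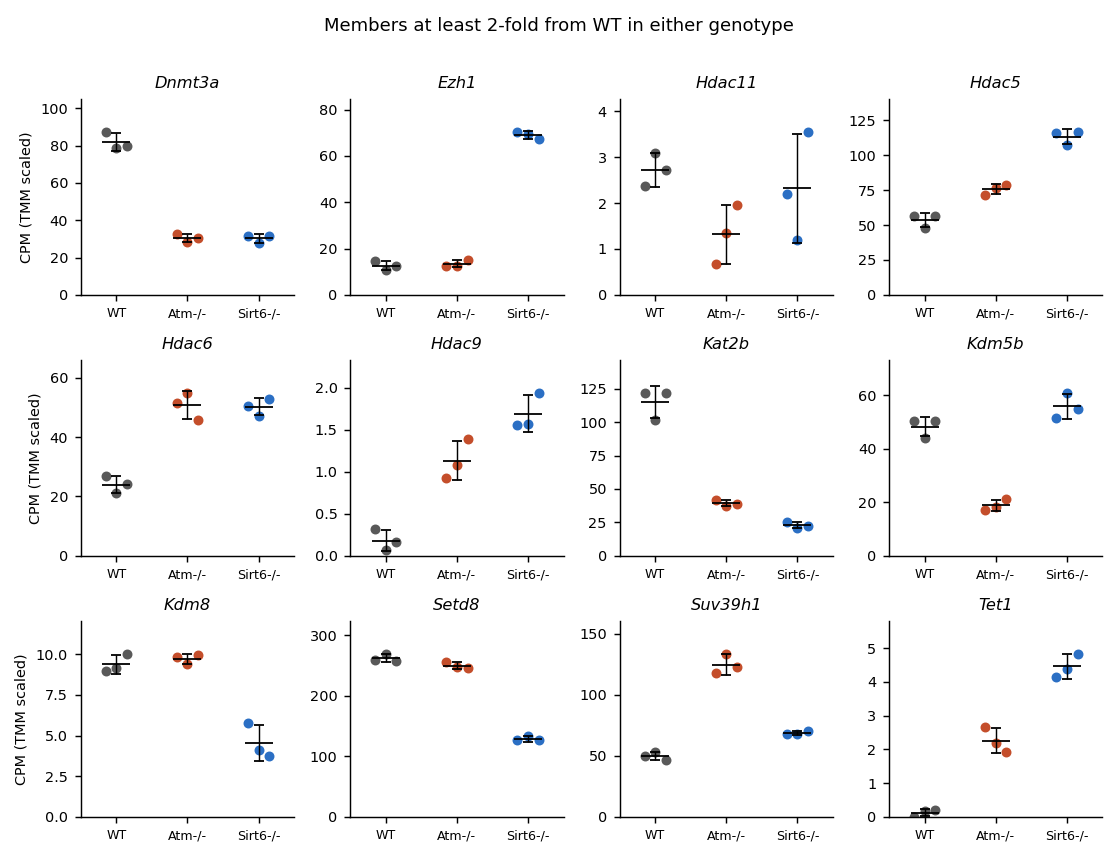
CPM scaled by TMM (vertical axes, each from 0) of the 12 members that were called, at least 2-fold from WT and without overlap in either genotype, with a point for each library and the mean ± SD of 3 in black, for WT (grey) and the libraries labelled Atm-/- (orange) and Sirt6-/- (blue). Dnmt3a and Kat2b lie below WT in both genotypes, Hdac6, Hdac9 and Tet1 above WT in both, and Ezh1 is at 69.0 ± 1.63 CPM in Sirt6-/- against 12.5 ± 1.98 CPM in WT.

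Of the 14 lysine demethylases 13 were tested. In Atm-/- 4 rose, 4 fell and 5 were not called, which is 30.8% higher and 30.8% lower beside 34.7% and 33.6% of all genes. In Sirt6-/- 6 rose, 2 fell and 5 were not called, which is 46.2% higher and 15.4% lower beside 39.2% and 37.4% of all genes. The summed level of the class was 691 ± 24.2 CPM in WT, 683 ± 1.32 CPM in Atm-/- and 871 ± 27.6 CPM in Sirt6-/-, and the libraries labelled Sirt6-/- held the highest summed level. Kdm1a (LSD1), the flavin-dependent H3K4 demethylase of CoREST, rose from 55.5 ± 2.59 CPM to 75.9 ± 1.57 CPM in Atm-/- (log2 fold change 0.45, SE 0.06, edgeR adjusted p = 7.26e-06) and 92.0 ± 2.15 CPM in Sirt6-/- (log2 fold change 0.74, SE 0.06, edgeR adjusted p = 1.71e-08). Its paralogue Kdm1b was called in opposite directions, at 18.8, 21.8 and 22.3 CPM in WT, 30.5, 31.3 and 28.0 CPM in the libraries labelled Atm-/- and 16.3, 15.6 and 13.7 CPM in those labelled Sirt6-/-. The genotypes were separate, with Atm-/- highest. The rise in Atm-/- had a log2 fold change of 0.51 (edgeR adjusted p = 0.000126), the fall in Sirt6-/- -0.45 (edgeR adjusted p = 0.00101) and the direct contrast -0.98 (edgeR adjusted p = 1.8e-09), and 9.99% of its exon bases are shared with Dek.

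Kdm5a and Kdm5b remove methyl groups from H3K4. Kdm5b (chr1:134560171-134635285 (plus strand)) stood at 50.3, 44.0 and 50.5 CPM in WT, 17.1, 18.2 and 21.1 CPM in the libraries labelled Atm-/- and 51.6, 61.0 and 54.8 CPM in those labelled Sirt6-/-. The libraries labelled Atm-/- held by far the least, and those labelled Sirt6-/- lay just above WT. It was 2.58-fold lower in Atm-/- (log2 fold change -1.37, SE 0.09, edgeR adjusted p = 4.86e-09). The small rise in Sirt6-/- (log2 fold change 0.22, SE 0.08, edgeR adjusted p = 0.0164) was not called without WT replicate 2 (0.15, edgeR adjusted p = 0.0738) or without Sirt6-/- replicate 2 (0.15, edgeR adjusted p = 0.103), whereas the direct contrast was (log2 fold change 1.57, SE 0.08, edgeR adjusted p = 3.51e-13). Kdm5a fell in Atm-/- with a log2 fold change of -0.28, a call that ended with library totals (-0.12, edgeR adjusted p = 0.0868), and was not called in Sirt6-/-.

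Among the JmjC demethylases of H3K36 and H3K9, Kdm2a was the most abundant demethylase per length in WT at 21.9 ± 0.847 RPKM. It had 176, 162 and 170.1 CPM in WT, 161, 166 and 167 CPM in the libraries labelled Atm-/- and 252, 238 and 237 CPM in those labelled Sirt6-/-. The libraries labelled Sirt6-/- lay above all others. Kdm2a rose in Sirt6-/- (log2 fold change 0.53, SE 0.05, edgeR adjusted p = 1.21e-07) and was not called in Atm-/- (log2 fold change -0.04, edgeR adjusted p = 0.414), where library totals gave a call in the other direction (0.12, edgeR adjusted p = 0.0308). Kdm4a, which acts on H3K9 and H3K36, rose in Sirt6-/- from 58.2 ± 8.83 to 109 ± 9.46 CPM (log2 fold change 0.91, SE 0.09, edgeR adjusted p = 3.24e-07) and was not called in Atm-/- (64.1 ± 3.31 CPM). Its relatives Kdm4b and Kdm4c had log2 fold changes of -0.61 and -0.21 in Atm-/-, both called, and of 0.03 and -0.01 in Sirt6-/-, neither called. The Kdm4c call was lost without WT replicate 1, WT replicate 3, Atm-/- replicate 1 or Atm-/- replicate 3 (edgeR adjusted p = 0.0634, 0.066, 0.0962 and 0.0751) and with library totals (edgeR adjusted p = 0.587). Kdm4d was below the test, with 2, 0 and 0 reads in WT, 3, 4 and 0 in the libraries labelled Atm-/- and 6, 14 and 21 in those labelled Sirt6-/-.

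Kdm8, a JmjC-domain protein (chr7:125444676-125462269 (plus strand)), stood at 8.96, 9.15 and 10.0 CPM in WT, 9.82, 9.40 and 9.99 CPM in the libraries labelled Atm-/- and 5.79, 4.09 and 3.76 CPM in those labelled Sirt6-/-. It fell in Sirt6-/- (log2 fold change -1.04, SE 0.17, edgeR adjusted p = 5.92e-05), where all 3 libraries lay below the other 6, and was not called in Atm-/- (edgeR adjusted p = 0.73). Kdm6b, the inducible H3K27 demethylase that opposes PRC2, rose in both, by 0.38 and 0.42 on the log2 scale, from 35.1 ± 1.37 CPM in WT. Kdm3b rose in Atm-/- by 0.18, Kdm7a rose in Sirt6-/- by 0.32, and Kdm2b was called in neither. In Sirt6-/- Kdm3b (log2 fold change 0.13, edgeR adjusted p = 0.0602) passed under 6 of the 15 alternative settings and Kdm2b (edgeR adjusted p = 0.106) under 3. The Kdm7a call was lost without WT replicate 1, Sirt6-/- replicate 1 or Sirt6-/- replicate 3 (edgeR adjusted p = 0.0578, 0.0739 and 0.0894).

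Of the 7 arginine methyltransferases tested, 6 rose in Atm-/- and 1 was not called, beside 34.7% of all genes called higher there, and in Sirt6-/- 4 rose and 3 fell, beside 39.2% and 37.4% of all genes. The summed level of the 8 genes was 478 ± 11.3 CPM in WT, 604 ± 9.01 CPM in Atm-/- and 443 ± 9.55 CPM in Sirt6-/-. The 3 genes that fell in Sirt6-/- were Prmt1, Prmt3 and Prmt5, and each of them rose in Atm-/-. Prmt1, which makes most asymmetric dimethylarginine and had the highest level of all members per length in every genotype, stood at 187, 196 and 196 CPM in WT, 256, 257 and 259 CPM in the libraries labelled Atm-/- and 168, 174 and 164 CPM in those labelled Sirt6-/-. The genotypes did not overlap. It rose in Atm-/- (log2 fold change 0.41, SE 0.04, edgeR adjusted p = 8.95e-07) and fell in Sirt6-/- (log2 fold change -0.18, SE 0.05, edgeR adjusted p = 0.00253), and with library totals the fall was not called (-0.09, edgeR adjusted p = 0.0862).

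Prmt5, the main source of symmetric dimethylarginine, stood at 114, 131 and 112 CPM in WT, 143, 149 and 152 CPM in the libraries labelled Atm-/- and 92.1, 86.2 and 82.5 CPM in those labelled Sirt6-/-. Prmt3, which methylates a ribosomal protein, stood at 36.7, 39.5 and 43.5 CPM, 50.1, 52.8 and 49.2 CPM and 33.5, 29.0 and 28.4 CPM in the same order. Both genes had separate genotypes, with Atm-/- highest and Sirt6-/- lowest. Prmt5 differed from WT by 0.31 in Atm-/- and -0.44 in Sirt6-/-, and by -0.77 in the direct contrast (SE 0.05, edgeR adjusted p = 9.2e-12). For Prmt3 these log2 fold changes were 0.34, -0.39 and -0.74 (SE of the direct contrast 0.07, edgeR adjusted p = 5.33e-09). Of the 15 proliferation genes given beside Ezh2, 14 were likewise lower in Sirt6-/- than in Atm-/-, and their part in the Prmt differences was not tested.

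Prmt2, Prmt7 and Prmt10 (now Prmt9) rose in both genotypes, by 0.35, 0.29 and 0.29 in Atm-/- and 0.20, 0.43 and 0.33 in Sirt6-/- on the log2 scale. Prmt6, which methylates an arginine of histone H3, rose in Sirt6-/- (log2 fold change 0.24 against -0.08 in Atm-/-, with a direct contrast of 0.30, edgeR adjusted p = 0.00083), and 23.5% of its exon bases are shared with C130013H08Rik. The Prmt10 call in Atm-/- was lost without Atm-/- replicate 3 (0.19, edgeR adjusted p = 0.0865), and the Prmt2 call in Sirt6-/- without WT replicate 2 or Sirt6-/- replicate 3 (0.16 and 0.19, edgeR adjusted p = 0.0759 and 0.0538). Prmt8, known from brain, had at most 2 reads in a library.

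**Figure D4:**
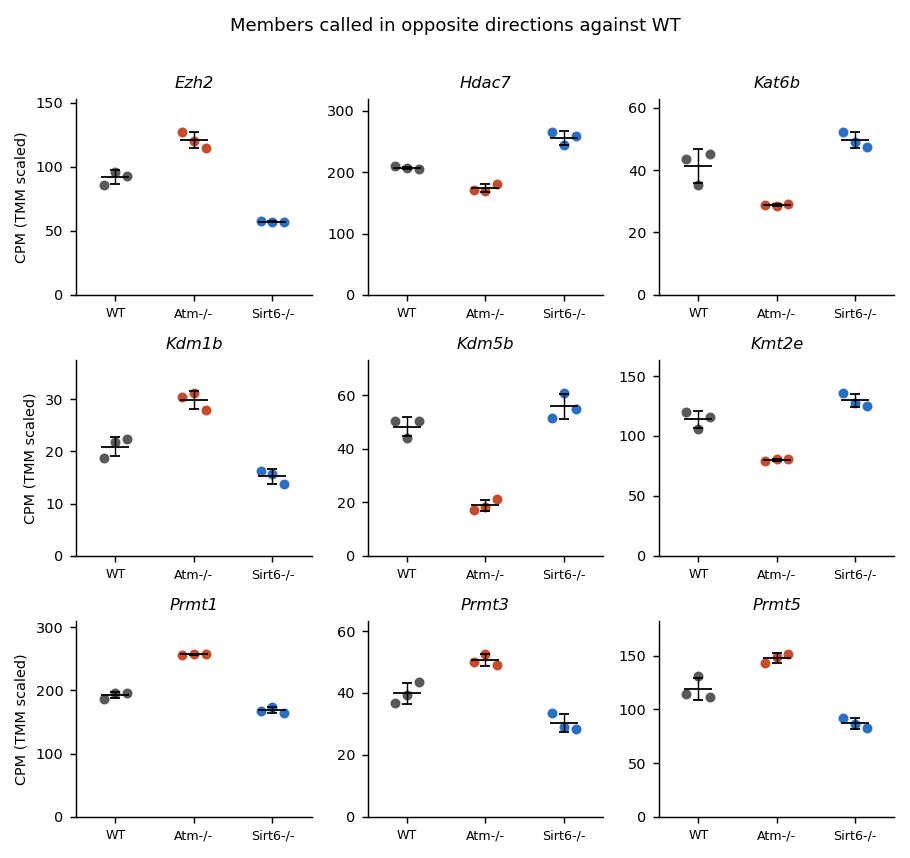
CPM scaled by TMM (vertical axes, each from 0) of the 9 members called in opposite directions against WT, with a point for each library and the mean ± SD of 3 in black, for WT (grey) and the libraries labelled Atm-/- (orange) and Sirt6-/- (blue). Ezh2, Kdm1b, Prmt1, Prmt3 and Prmt5 are highest in Atm-/- and lowest in Sirt6-/-, and Hdac7, Kat6b, Kdm5b and Kmt2e are lowest in Atm-/- and highest in Sirt6-/-.

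Of the DNA methyltransferases, the maintenance enzyme Dnmt1 was abundant and called in neither comparison with WT. It had 349, 379.8 and 352 CPM in WT, 362, 378 and 372 CPM in the libraries labelled Atm-/- and 362, 363 and 341 CPM in those labelled Sirt6-/-. The genotypes overlapped, and Dnmt1 was not called in Atm-/- (log2 fold change 0.04, SE 0.05, edgeR adjusted p = 0.512) or in Sirt6-/- (log2 fold change -0.01, SE 0.05, edgeR adjusted p = 0.861), although library totals gave a call in Atm-/- (0.20, edgeR adjusted p = 0.00135). Dnmt3a (chr12:3806007-3914443 (plus strand)), a de novo methyltransferase, had 87.4, 78.7 and 79.5 CPM in WT, 32.7, 28.6 and 30.6 CPM in the libraries labelled Atm-/- and 31.3, 27.7 and 31.6 CPM in those labelled Sirt6-/-. All WT libraries were far above the other 6, which overlapped. It fell 2.68-fold in Atm-/- (log2 fold change -1.42, SE 0.07, edgeR adjusted p = 1.59e-10) and 2.69-fold in Sirt6-/- (log2 fold change -1.43, SE 0.07, edgeR adjusted p = 9.83e-11), and the direct contrast was not called (log2 fold change -0.02, edgeR adjusted p = 0.816).

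Dnmt3b, the other de novo enzyme, was scarce, with 37, 54 and 62 reads in WT, 94, 123 and 84 in the libraries labelled Atm-/- and 93, 91 and 61 in those labelled Sirt6-/-. Its rise was called in Atm-/- (log2 fold change 0.83, SE 0.26, edgeR adjusted p = 0.0112), though not without Atm-/- replicate 2 (0.68, edgeR adjusted p = 0.0657), and not in Sirt6-/- (log2 fold change 0.63, SE 0.29, edgeR adjusted p = 0.0606), where it passed under 6 of the 15 alternative settings. The direct contrast was not called (log2 fold change -0.22, edgeR adjusted p = 0.398). Dnmt3a made up 95.7% ± 1.23 of the summed RPKM of both genes in WT, 82.4% ± 3.51 in Atm-/- and 84.4% ± 3.69 in Sirt6-/-, and the WT libraries lay above all others. Dnmt3l, which encodes a partner of these enzymes without activity of its own, had at most 5 reads in a library, and Dnmt3aos, which lies within Dnmt3a on the opposite strand, had at most 5. The library protocol in the labels mentions no strand marking, so reads of a gene and an antisense partner cannot be told apart.

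The Tet dioxygenases changed their relative amounts. Tet3, the most abundant of them, fell from 112, 101 and 111 CPM in WT to 84.7, 75.4 and 81.9 CPM in the libraries labelled Atm-/- and 65.1, 65.0 and 63.1 CPM in those labelled Sirt6-/-. No genotypes overlapped (log2 fold change -0.43, SE 0.06, edgeR adjusted p = 1.61e-05 in Atm-/-, and log2 fold change -0.73, SE 0.05, edgeR adjusted p = 1.15e-08 in Sirt6-/-). Tet2 rose in Sirt6-/- from 13.3 ± 0.598 to 21.5 ± 1.15 CPM (log2 fold change 0.70, SE 0.09, edgeR adjusted p = 6.02e-06). In Atm-/- its rise (log2 fold change 0.25, SE 0.10, edgeR adjusted p = 0.0392) was not called without WT replicate 1, WT replicate 2 or Atm-/- replicate 2 (edgeR adjusted p = 0.0711, 0.0851 and 0.162) or in the DESeq2 Wald test (adjusted p = 0.0562).

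Tet1 (chr10:62804570-62908996 (minus strand)) had the largest fold change of all members and few WT reads. The read counts were 0, 5 and 6 in WT, 92, 77 and 65 in the libraries labelled Atm-/- and 135, 143 and 162 in those labelled Sirt6-/-. WT replicate 1 had none, and every library of the other genotypes held more than every WT library. The fitted log2 fold changes of 4.23 in Atm-/- (SE 0.52, edgeR adjusted p = 4.65e-06) and 5.22 in Sirt6-/- (SE 0.44, edgeR adjusted p = 4.79e-08) depend on the prior count of the fit. Against WT, Tet1 had enough reads to be tested only through the libraries in which it was high, so these p-values are no separate support. Tet1 was higher in Sirt6-/- than in Atm-/- (log2 fold change 0.98, SE 0.20, edgeR adjusted p = 0.000179), and per length it still stood at only 0.318 ± 0.0239 RPKM in Sirt6-/-, against 5.94 ± 0.132 RPKM for Tet3.

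Ordered by their mean RPKM, the members spanned a wide range in each genotype. In WT Prmt1 at 133 ± 4.26 RPKM came first, followed by Setd8 at 90.0 ± 2.55 RPKM and Dnmt1 at 64.5 ± 3.27 RPKM. The next were Hdac2 at 55.3 ± 2.29 RPKM and Hdac1 at 52.4 ± 1.35 RPKM, and none of these 5 neighbours overlapped between libraries, while the median member stood at 9.38 RPKM. In the libraries labelled Sirt6-/- Prmt1 at 125 ± 4.23 RPKM still came first and Hdac1 at 73.7 ± 1.22 RPKM second, while Setd8 at 47.2 ± 1.73 RPKM was sixth, with libraries that overlapped those of Hdac3 next in order at 46.1 ± 3.34 RPKM. Over all members the summed level was 4864 ± 30.9 CPM in WT, 4873 ± 11.5 CPM in Atm-/- and 4915 ± 84.2 CPM in Sirt6-/-.

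The genes that work with these enzymes were taken as a list of 93, all of them tested: subunits of PRC2, COMPASS, deacetylase and acetyltransferase complexes, other writers, other JmjC proteins and DNA methylation partners. In Atm-/- 35 of them were higher than in WT, 30 lower and 28 not called, which is 37.6% and 32.3% of the list beside 34.7% and 33.6% of all genes. In Sirt6-/- 28 were higher, 46 lower and 19 not called, which is 30.1% and 49.5% beside 39.2% and 37.4%. With library totals the split in Atm-/- was 49 higher and 14 lower. In the direct contrast 19 were higher in Sirt6-/- and 55 lower, which is 20.4% and 59.1% beside 37.8% and 38.0% of all genes. By group, those lower and higher in Sirt6-/- than in Atm-/- were 5 and 2 of 9 PRC2 subunits, 8 and 2 of 10 COMPASS subunits, 10 and 6 of 20 subunits of deacetylase complexes and 12 and 1 of 19 subunits of acetyltransferase complexes. They were 13 and 5 of 19 other writers, 1 and 1 of 6 other JmjC proteins and 6 and 2 of 10 DNA methylation partners.

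At least 2-fold higher in Atm-/- were 4 partner genes: Phf19 (log2 fold change 3.95), Nsd1 (1.87), Rcor2 (1.29) and Msl3 (1.17). The 2 that were at least 2-fold lower were Ncoa1 (-1.36) and Mta3 (-1.01). These counts are 4.30% and 2.15% of the list, beside 12.6% and 9.85% of all genes. In Sirt6-/- Phf19 (3.08), Nsd1 (1.69), Tbl1xr1 (1.61) and Hr (1.25) were at least 2-fold higher, and Jade1 (-1.60), Tbl1x (-1.41), Sap30 (-1.26) and Ing5 (-1.14) at least 2-fold lower, in each direction 4.30% of the list beside 17.5% and 11.8% of all genes. Phf19, an accessory subunit of PRC2, had 2.78, 2.65 and 2.49 CPM in WT, 42.9, 35.4 and 44.5 CPM in the libraries labelled Atm-/- and 21.9, 23.0 and 21.6 CPM in those labelled Sirt6-/-. The core PRC2 subunit Eed fell in Sirt6-/- (log2 fold change -0.61, SE 0.07, edgeR adjusted p = 2.26e-06), while Suz12 was not called there (log2 fold change 0.03, edgeR adjusted p = 0.631).

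Promoter windows of 250 bases before a RefSeq start site (GRCm38.p6) were found for 56 of the 68 members, under the newer symbols Kmt5a, Kmt5b, Kmt5c and Prmt9 where needed. The letters searched on both strands were TTTGGCGC, TTTCCCGC, TTTCGCGC and TTTGCCGC for E2F, TTTGAA and TTCGAA for the cell cycle homology region (CHR), and GCATGCGC for the NRF1 core. None of these strings contains another. E2F letters were in a window of 4 members (Dnmt1, Kat2a, Suv39h1 and Suv420h2), which is 7.14% of those with a window, against 2.16% of the 27025 genes of the table. CHR letters were in a window of 11 members, 19.6% against 19.6% of all genes, and NRF1 core letters in none, against 2.56%. These shares count a gene with the letters in any of its windows. Dnmt1 had 3 windows and Suv39h1 had 2, each with E2F letters in 1. Of the 4 members with E2F letters Kat2a, Suv39h1 and Suv420h2 were called higher in both genotypes and Dnmt1 in neither. The share of all genes called higher in both genotypes was not counted, so no link between letters and calls can be read from these 4. A match of letters describes the sequence and is not a binding site.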

How the data were processed

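RNA-Seq of 9 libraries was analysed, 3 for each of 3 genotypes as the labels give them. The authors deposited counts of reads per gene, and beside them RPKM values, which relate the counts to transcript length and library total. Their reads were aligned to mm10 according to the submitters' processing notes, and the aligner and counter are not given in the sources used here. Per the labels, the libraries were made by oligo(dT) selection.

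Counts were tested in R 4.3.3 with edgeR 4.0.16 (filterByExpr by genotype, TMM scaling, glmQLFit and glmQLFTest with a prior count of 0.125, Benjamini-Hochberg threshold 0.05) for each pair of genotypes alone. Each SE was computed from the fitted log2 fold change and the F statistic of its test, so it depends on the prior count as the fold change does. Shares of paralogues and level orders used the deposited RPKM. The edgeR fits were tested on simulated counts with few changed genes, as many higher as lower. Such counts could not test the scaling of libraries in which most genes were called. Positions are from GENCODE M21 and promoter windows from RefSeq. Per-sample values were given for members called with a log2 fold change of at least 1 in size and no overlap, called in opposite directions against WT, highest in WT RPKM in their class, or in a paralogue pair. Other members are named to complete each class. Alternatives were DESeq2 1.42.0 size factors and Wald test, library totals, other filters, all 9 libraries in 1 fit, a replicate block, the edgeR exact test, a prior count of 2, leaving out each library, a 2-fold size limit, and shares from counts without length. The members and lists were chosen with earlier results of these data known.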

Additional observations from a re-analysis of the deposited data

Results flagged for a closer look

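The 9 members flagged here were called in opposite directions against WT in the libraries labelled Atm-/- and Sirt6-/-. The flagging rule also required a call in the direct contrast, and both comparisons share the WT libraries. The direct calls are therefore no separate support, and the contrast is given for the size of the difference between these genotypes. Higher in Sirt6-/- than in Atm-/- were Kdm5b (log2 fold change 1.57), Kat6b (0.78), Kmt2e (0.70) and Hdac7 (0.56). Lower in Sirt6-/- than in Atm-/- were Ezh2 (log2 fold change -1.08), Kdm1b (-0.98), Prmt5 (-0.77), Prmt3 (-0.74) and Prmt1 (-0.61). With library totals the call of Hdac7 in Atm-/- against WT and that of Prmt1 in Sirt6-/- against WT ended, and the call of Kdm5b in Sirt6-/- against WT ended without WT replicate 2 or without Sirt6-/- replicate 2. Single genes were not screened for an outlying library by Dixon's test, which was not applied to groups of 3.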

How the results depend on the processing

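Under all 15 alternative settings 39 of the 50 member calls in Atm-/- against WT were kept, 37 of 45 in Sirt6-/- against WT and 42 of 47 in the direct contrast. The prior count of 2 is among the 15 settings and changes only the fitted fold change, so no call could start or end under it. In each comparison with WT 2 further calls, Tet1 and Hdac9, were kept wherever they were tested and could not be tested with at least 10 counts in every library. Leaving out each library in turn gave 28 to 29 members higher and 20 to 21 lower in Atm-/-, 27 to 29 and 16 to 17 in Sirt6-/-, and 24 to 27 and 18 to 21 in the direct contrast. With a 2-fold size as well, 4 members were higher and 4 lower in Atm-/-, 5 and 4 in Sirt6-/-, and 2 and 2 in the direct contrast, and partner genes came to 4 and 2 in Atm-/- and 4 and 4 in Sirt6-/-. The share of all genes at that size is not given for the direct contrast, so its 2 and 2 cannot be set against a background. With library totals 14 partner genes were lower in Atm-/-, beside 30 with TMM, the median log2 fold change of the members moved to 0.27 in Atm-/-, 0.22 in Sirt6-/- and -0.03 in the direct contrast (from 0.11, 0.13 and 0.03), and Kdm2a in Atm-/- changed sign from -0.04 to 0.12 (edgeR adjusted p = 0.0308). The cause was not tested. From counts without length, the share in WT, Atm-/- and Sirt6-/- was 12.1%, 9.98% and 54.7% for Ezh1, 70.8%, 77.4% and 76.9% for Suv39h1, 98.0%, 91.3% and 92.3% for Dnmt3a, 50.9%, 79.9% and 85.3% for Kat2a, and 83.4%, 80.3% and 81.8% for Suv420h1. Replicate numbers did not pair the libraries (correlation of deviations between same-numbered libraries -0.0120 to 0.0333), and with a replicate block 28 members were higher and 21 lower in Atm-/-, 31 and 16 in Sirt6-/-, and 27 and 20 in the direct contrast. The block ended the calls of Tet2 in Atm-/- (edgeR adjusted p = 0.0631) and Hdac10 in the direct contrast (0.0566), and it gave calls to Kat6a (0.0281) and Kdm3b (0.0442) in Sirt6-/- against WT and to Hdac11 in the direct contrast (0.0489). At these depths Tet1, Hdac9 and Hdac11 rest on few reads.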
